A study of Mus musculus with 6 samples.

Results

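Mitochondria join and divide through a small set of membrane proteins, and the transcripts of 10 of these genes are described here in mouse podocytes depleted of Tfeb. The genes were chosen by name (Mfn1, Mfn2, Opa1, Oma1, Yme1l1, Dnm1l, Fis1, Mff, Mief1 and Mief2), each matched exactly 1 of the 53715 genes in the deposited table, and all 10 were among the 12257 genes tested. The cells were an immortalized wild-type mouse podocyte line from kidney, expanded at 33 °C in 10% serum with interferon gamma, then differentiated for 10 to 14 days at 37 °C in 5% serum with 12 mg/ml of collagen type I. Of the 6 libraries of total RNA, 3 came from cells transfected with a scrambled small interfering RNA (siRNA) and 3 from cells transfected with an siRNA that knocks down Tfeb, which encodes a transcription factor of lysosome and autophagy genes. The study compared these groups with each other. All libraries thus come from 1 line, and none was left untransfected.

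Fusion of the outer mitochondrial membrane is carried out by the mitofusins Mfn1 and Mfn2, and fusion of the inner membrane by Opa1, a dynamin-like GTPase that also holds cristae in shape. The proteases Oma1 and Yme1l1 cut Opa1 into short forms, Oma1 mainly when the membrane potential is lost. Fission is carried out by Drp1, the product of Dnm1l, which is drawn to the outer membrane by the receptors Mff, Mief1 and Mief2 and constricts the organelle, while Fis1 is an outer membrane protein also linked to fission and to mitophagy. Podocytes depend on a network of foot processes for filtration, and mitochondrial fission in these cells has been studied in models of diabetic kidney disease.

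Derived read totals were 18062898 to 20610888 per library, and the members had 165 to 3999 reads each in a library. Tfeb itself was lower in each Tfeb siRNA library (0.639, 0.714 and 0.822 FPKM, against 1.80, 2.05 and 2.27 FPKM; FPKM counts fragments for each kilobase of a gene at a common library depth). Of 9 podocyte markers 5 reached 1 FPKM, among them Synpo, Actn4 and Cd2ap, but the slit diaphragm gene Nphs1 averaged only 0.232 FPKM in the scrambled libraries. The summed podocyte markers stood at 274 to 294 FPKM in the scrambled and 261 to 263 FPKM in the Tfeb siRNA libraries. The summed proximal tubule markers, mostly Aqp1 and Lrp2, stood at 176 to 227 and 181 to 218 FPKM, and the mesangial and fibroblast markers, mostly Pdgfrb, at 34.5 to 37.3 and 34.1 to 36.6 FPKM. Leukocyte markers summed to 4.91 to 6.75 and 3.81 to 5.18 FPKM, nearly all of it Cd68, and endothelial markers to at most 0.575 FPKM, with Emcn and Cd3e at 0 in all libraries. Slc34a1, Slc5a2, Itga8, Ren1 and Ptprc of these lists averaged below 0.1 FPKM. Other genes of the same lists did not, such as Aqp1 (146 FPKM in the scrambled libraries), Lrp2 (52.5 FPKM) and Pdgfrb (31.9 FPKM). None of the 7 tested markers of other cell types was called. Genes of the mitochondrial DNA took 1.36% to 1.43% of reads in the scrambled libraries and 1.44% to 1.57% in the Tfeb siRNA libraries. The part of these shifts in the levels below was not tested. In bulk RNA, fewer cells that use a gene and less of its RNA per cell cannot be told apart.

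Among the 10 transcripts, the outer membrane mitofusin Mfn1 rose after Tfeb siRNA, while the inner membrane fusion gene Opa1 and the fission gene Fis1 fell. The other 7 did not pass the test: Mfn2, Oma1, Yme1l1, Dnm1l, Mff, Mief1 and Mief2. A call needs a Benjamini-Hochberg adjusted p below 0.05 in a limma model fitted to all tested genes. That share of 1 higher and 2 lower in 10 stands beside 33.3% of all tested genes called, 16.9% higher and 16.4% lower. Over the other settings 3 members were called each time, while the share of all tested genes ran from 11.8% (no filter on low values) and 22.6% (without scrambled siRNA replicate 3) to 40.2% (replicate block). The groups did not overlap for 4 members (Mfn1, Mfn2, Opa1 and Fis1), where 48.7% of all tested genes had no overlap, 25.3% with the Tfeb siRNA libraries above and 23.5% with them below. The median log2 fold change of the 10 was -0.09, beside 0.02 over all tested genes. The exact two-sided permutation p was 0.1 for these 4, the smallest that 3 against 3 libraries can give, and 0.2 to 0.7 for the other 6.

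**Figure D1:**
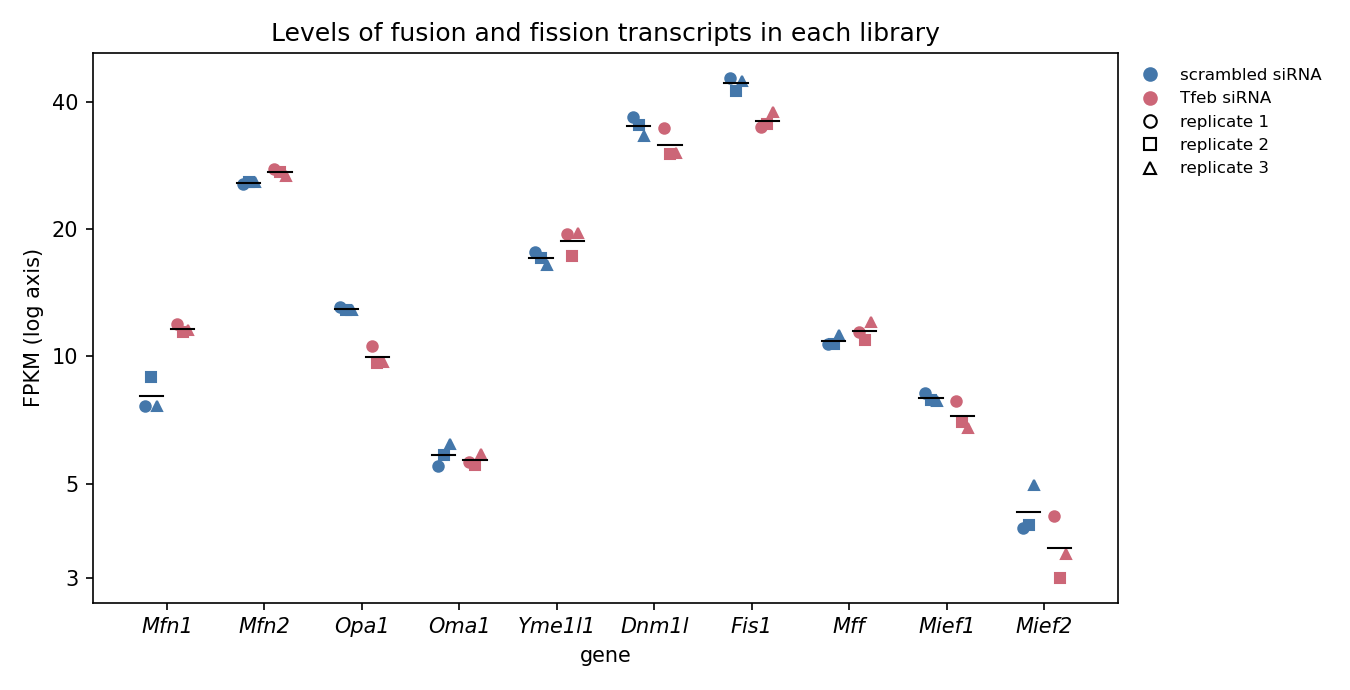
FPKM of the 10 fusion and fission genes (log axis) in each library; points are libraries (shape gives the replicate number), colours the groups, and short lines the group means. Fis1 and Dnm1l were highest and Mief2 lowest, and Mfn1, with 7.62 to 8.95 FPKM in the scrambled libraries, stood at 11.4 to 11.9 FPKM after Tfeb siRNA.

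In scrambled libraries the levels per gene length spanned 10.3-fold, from 44.2 FPKM for Fis1 to 4.29 FPKM for Mief2. The order was Fis1, Dnm1l, Mfn2, Yme1l1, Opa1, Mff, Mfn1, Mief1, Oma1 and Mief2. Only the neighbours Mfn1 and Mief1 had overlapping libraries in that order; each other pair of neighbours was separated in all 3 libraries. Opa1, at rank 5 with 12.96 FPKM, and Mfn1, at rank 7 with 8.07 FPKM, exchanged places after Tfeb siRNA, when Mfn1 had 11.6 FPKM, overlapping Mff at 11.5 FPKM, and Opa1 had 9.98 FPKM. The spread between libraries of a group ran from a coefficient of variation of 0.537% (Mfn2, scrambled siRNA) to 17.1% (Mief2, Tfeb siRNA), the latter on 165 to 204 reads a library.

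Mfn1 encodes the mitofusin that tethers mitochondria to each other most strongly (chromosome 3, 32529465 to 32579239, plus strand). Its level was 7.62, 8.95 and 7.65 FPKM in the scrambled libraries (replicates 1, 2 and 3, the order of every list of values here) and 11.9, 11.4 and 11.5 FPKM after Tfeb siRNA. Every Tfeb siRNA library was above every scrambled library, and replicate 2 was the highest of the scrambled ones. The mean rose 1.44-fold, from 8.07 ± 0.758 to 11.6 ± 0.259 FPKM (SD, n = 3; adjusted p = 0.00271 in limma, log2 fold change 0.50 with an SE of 0.07 on the log2(FPKM + 0.5) scale). The median log2 fold change of all genes called higher was 0.38.

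Mfn2 encodes the mitofusin that also joins mitochondria to the endoplasmic reticulum (chromosome 4, 147873599 to 147904704, minus strand). It had 25.6, 25.8 and 25.9 FPKM in the scrambled libraries and 27.8, 27.2 and 26.7 FPKM after Tfeb siRNA. Each Tfeb siRNA library was above the scrambled libraries, but the gap was small, at 1.06-fold in the mean, and did not pass the test (limma log2 fold change 0.08, 95% interval -0.03 to 0.18, adjusted p = 0.215). Mfn1 made up 22.9%, 25.7% and 22.8% of the summed FPKM of both mitofusins in the scrambled libraries and 30.0%, 29.5% and 30.2% after Tfeb siRNA, so that Mfn2 remained the more abundant mitofusin transcript in each library. The sum of both was 33.8 ± 0.805 and 38.9 ± 0.758 FPKM (SD, n = 3).

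No siRNA sequence is given in the sources used here. An siRNA strand can also lower other transcripts through seed matches in their 3' UTRs, so an earlier ranking of heptamers (7-base words) by these same fold changes was carried over to the members; the words were chosen on these libraries and are no independent evidence. Of 10474 tested genes with an annotated 3' UTR, 3510 hold 1 or more words of the falling end in the longest annotated form (CTACATA in 1107, TACATAA in 1315, GGCCATG in 1413 and GCCATGA in 1151), and 25.7% of them were called lower, against 13.9% of the rest. At the rising end, 980 hold a word (TCGGAGA in 274, CGGAGAA in 334, TGTCACG in 379 and GTCACGA in 193), and 31.7% of them were called higher, against 16.5% of the rest. A longer 3' UTR is likelier to hold a word, and the sets with and without words were not matched for length. Mfn1, the member that rose, holds none of the 8 words, and neither does Fis1, which fell. Mfn2, which was not called, holds 3 words of the rising end: the word TCGGAGA, overlapped by CGGAGAA 1 base further on, and at another place TGTCACG. Of its 4 annotated 3' UTRs, 3 hold TCGGAGA and CGGAGAA and 2 hold TGTCACG. Each site is shown with the bases around it, 27 in all, from the GENCODE M21 transcript (mm10, minus strand, chr4:147874787-147874813 and chr4:147873926-147873952), 5′ to 3′, with the word in capitals, because Mfn2 is the only member with words of that end:
Mfn2 first site: cagtaagggcTCGGAGAaggtatgtga
Mfn2 second site: tgaaaatcagTGTCACGtagtcccagt

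Opa1 (chromosome 16, 29579334 to 29654884, plus strand) fell in each Tfeb siRNA library. Its level was 13.1, 12.9 and 12.9 FPKM in the scrambled libraries, a narrow range, and 10.6, 9.64 and 9.71 FPKM after Tfeb siRNA. The groups did not overlap, and replicate 1 was the highest of the Tfeb siRNA libraries. The mean fell by 23.0%, from 12.96 ± 0.146 to 9.98 ± 0.525 FPKM (SD, n = 3; adjusted p = 0.00338 in limma, log2 fold change -0.36 with an SE of 0.06), beside a median of -0.40 over all genes called lower. Mfn1 thus had 0.581, 0.696 and 0.593 times the FPKM of Opa1 in the scrambled libraries and 1.13, 1.18 and 1.19 times after Tfeb siRNA.

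Opa1 is the only called member with a word of the falling end in its longest annotated 3' UTR, which is 3141 bases long: CTACATA and GCCATGA, both in 1 of its 3 annotated 3' UTRs. Yme1l1 holds CTACATA in its only annotated 3' UTR and was not called. The sites are set side by side because the same word stands in a transcript that fell and in one that did not pass the test (mm10, plus strand, chr16:29654140-29654166 and chr16:29653127-29653153 for Opa1 and chr2:23198195-23198221 for Yme1l1; word in capitals, 5′ to 3′):
Opa1 site of CTACATA: caagcctgagCTACATAgggacacccc
Opa1 site of GCCATGA: gattcccacaGCCATGAggatatgctc
Yme1l1 site of CTACATA: ccctcattctCTACATAttcatgcata
Whether a site had a part in the level of its transcript was not tested.

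The start region of Opa1 is the only one among the members with the letters CGCATGC, part of the known site of nuclear respiratory factor 1, a transcription factor of many nuclear genes for mitochondrial proteins. Promoter windows of RefSeq (250 bases before to 50 after the start site, GRCm38.p6) were found for all 10 members, 15 windows in all, and the word was searched on both strands. It begins at position -58 from the start site of Opa1 and, on the other strand, at -57, and 3.58% of all 32851 windows hold it. The window is printed with both matches, which overlap, in capitals (plus strand, chr16:29579084-29579383):
Opa1 promoter window: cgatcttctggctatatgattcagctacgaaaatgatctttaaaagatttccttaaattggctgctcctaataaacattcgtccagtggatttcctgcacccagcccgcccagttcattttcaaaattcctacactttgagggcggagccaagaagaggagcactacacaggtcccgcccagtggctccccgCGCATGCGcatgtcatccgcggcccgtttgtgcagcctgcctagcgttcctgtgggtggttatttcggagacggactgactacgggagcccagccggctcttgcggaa
A match of letters is a description of this window and shows no binding.

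The proteases that cut Opa1 did not pass the test. Yme1l1 encodes the inner membrane protease with steady activity (chromosome 2, 23156369 to 23199260, plus strand) and had 17.7, 17.1 and 16.4 FPKM in the scrambled libraries and 19.4, 17.3 and 19.6 FPKM after Tfeb siRNA. Replicate 2 of the Tfeb siRNA group lay within the scrambled range and the others lay above it (limma log2 fold change 0.13, 95% interval -0.02 to 0.29, adjusted p = 0.162). Within each of the 3 same-numbered pairs the Tfeb siRNA library was the higher (adjusted p = 0.124 in limma with the replicate block). Oma1 encodes the protease activated by stress (chromosome 4, 103313812 to 103371868, plus strand). It had 5.51, 5.84 and 6.22 FPKM in the scrambled libraries and 5.64, 5.55 and 5.89 FPKM after Tfeb siRNA. All 3 Tfeb siRNA values lay inside the scrambled range, and the interval of the log2 fold change ran from -0.19 to 0.12 (limma adjusted p = 0.706). Opa1 had 0.742, 0.752 and 0.784 times the FPKM of Yme1l1 in the scrambled libraries and 0.544, 0.558 and 0.495 times after Tfeb siRNA. The table gives 1 value per gene, so splice forms of Opa1, and the cut forms of its protein, are not seen here.

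Fis1, the most abundant of the 10 transcripts per length (chromosome 5, 136953275 to 136966234, plus strand), fell in each Tfeb siRNA library. It had 45.6, 42.4 and 44.7 FPKM in the scrambled libraries and 35.0, 35.4 and 37.8 FPKM after Tfeb siRNA. The highest Tfeb siRNA library was below the lowest scrambled one. The mean fell by 18.5%, from 44.2 ± 1.63 to 36.1 ± 1.55 FPKM (SD, n = 3; adjusted p = 0.00736 in limma, log2 fold change -0.29 with an SE of 0.05).

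**Figure D2:**
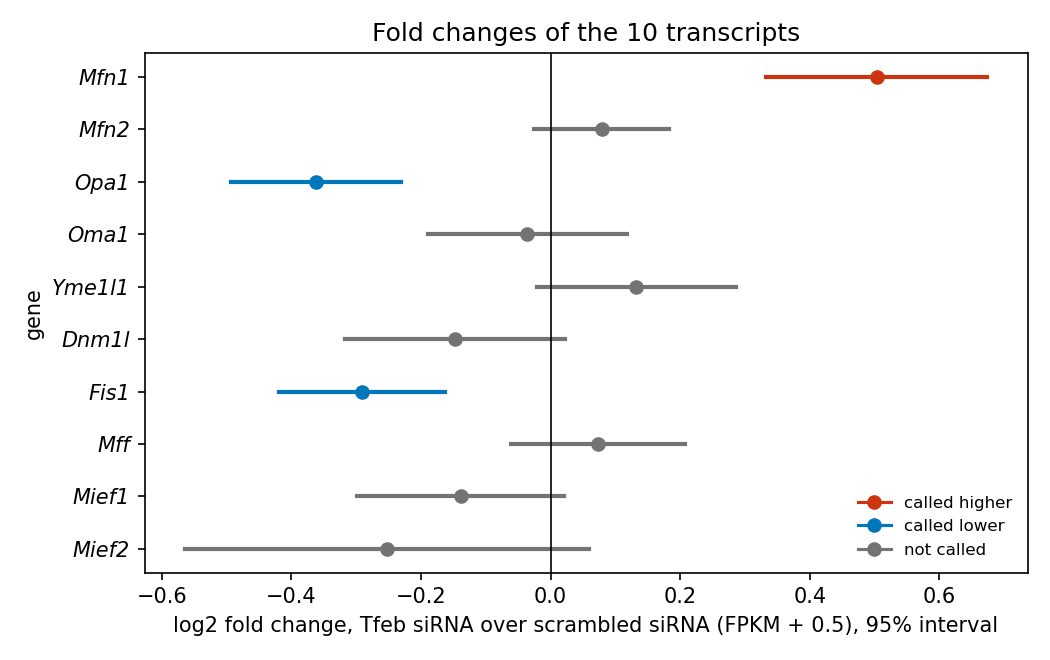
Log2 fold change of each of the 10 genes (Tfeb siRNA over scrambled siRNA, log2(FPKM + 0.5) scale), with points for the estimate and bars for the 95% interval of the limma fit. The intervals of Mfn1 (0.33 to 0.67), Opa1 (-0.49 to -0.23) and Fis1 (-0.42 to -0.16) lie away from 0, and the other 7 include it.

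Dnm1l, which encodes Drp1 itself (chromosome 16, 16312230 to 16358959, minus strand), was not called. Its level was 36.9, 35.2 and 33.2 FPKM in the scrambled libraries and 34.7, 30.1 and 30.4 FPKM after Tfeb siRNA. Tfeb siRNA replicate 1 lay inside the scrambled range, and replicates 2 and 3 lay below it. In each of the 3 same-numbered pairs the Tfeb siRNA library was the lower, though the numbers 2 and 3 are weakly told apart. The means were 35.1 ± 1.83 and 31.7 ± 2.58 FPKM (SD, n = 3; limma log2 fold change -0.15, 95% interval -0.32 to 0.02, adjusted p = 0.160). About 4.90% of the 50-base words of Dnm1l recur in Gm49521, Gm13719 or Gm47540, and Gm49521 is antisense to it over 243 exon bases. A small part of its reads could therefore belong to those genes.

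The outer membrane receptors of Drp1 did not pass the test either: the mean of Mff was above and those of Mief1 and Mief2 were below their scrambled means. Mff (chromosome 1, 82724890 to 82752394, plus strand), the most abundant receptor, had 10.7, 10.7 and 11.2 FPKM in the scrambled libraries and 11.4, 10.9 and 12.1 FPKM after Tfeb siRNA (limma log2 fold change 0.07, 95% interval -0.06 to 0.21, adjusted p = 0.364). Replicate 2 of the Tfeb siRNA group lay inside the scrambled range. Mief1 (chromosome 15, 80234018 to 80253371, plus strand) had 8.18, 7.90 and 7.85 FPKM in the scrambled libraries and 7.86, 6.99 and 6.79 FPKM after Tfeb siRNA (limma log2 fold change -0.14, 95% interval -0.30 to 0.02, adjusted p = 0.160). Mief2 (chromosome 11, 60728398 to 60732951, plus strand) had 3.92, 3.99 and 4.97 FPKM in the scrambled libraries and 4.19, 3.0 and 3.41 FPKM after Tfeb siRNA (limma log2 fold change -0.25, 95% interval -0.56 to 0.06, adjusted p = 0.186). For Mief1 and Mief2, as for Dnm1l, Tfeb siRNA replicate 1 lay inside the scrambled range and replicates 2 and 3 below it. Within same-numbered pairs the Tfeb siRNA library was lower in 3 of 3 for Mief1 and in 2 of 3 for Mief2, and higher in 3 of 3 for Mff. How often all 3 pairs go the same way over all tested genes was not counted. With the replicate number as a block, the limma adjusted p was 0.0528 for Dnm1l, 0.0979 for Mief1, 0.154 for Mief2 and 0.259 for Mff, so none was called. The 3 receptors summed to 22.8, 22.6 and 24.0 FPKM in the scrambled libraries and to 23.5, 20.9 and 22.3 FPKM after Tfeb siRNA, and these overlap. Mff made up 46.9%, 47.4% and 46.7% of that sum in the scrambled libraries and 48.6%, 52.3% and 54.3% in the Tfeb siRNA libraries.

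**Figure D3:**
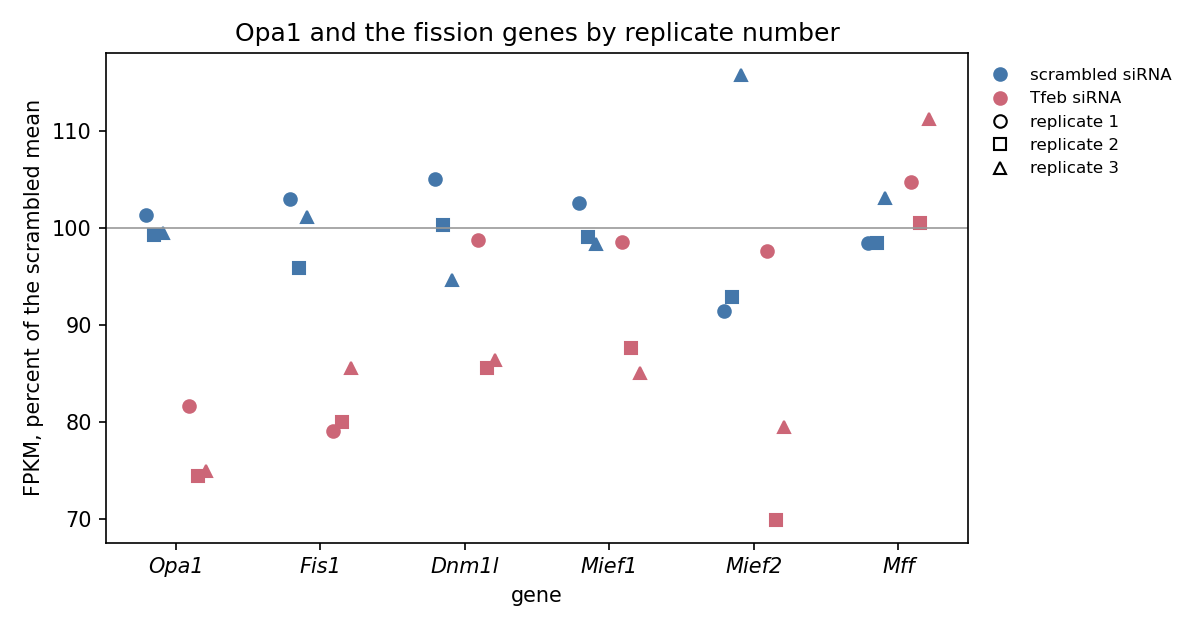
FPKM of Opa1 and the 5 fission genes as a percent of the scrambled mean of each gene; points are libraries, colours the groups and shapes the replicate numbers. In Tfeb siRNA replicate 1, Dnm1l, Mief1 and Mief2 stood at 98.7%, 98.6% and 97.6% of the scrambled mean, and in replicate 2 at 85.6%, 87.6% and 69.9%.

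GGCCATG stands at 2 places in the longest annotated 3' UTR of Mief1, and 3 of its 4 annotated 3' UTRs hold the word. Both sites are printed (mm10, plus strand, chr15:80251044-80251070 and chr15:80251351-80251377) because Mief1 is the remaining member with a word of the falling end:
Mief1 first site: tagccacggaGGCCATGggaaggcaaa
Mief1 second site: tgctatatatGGCCATGtaatcatcct
Of the 3 members with a falling-end word (Opa1, Yme1l1 and Mief1), 1 was called lower. Of all genes searched, 25.7% of those with such a word were called lower, against 13.9% of the rest. Oma1, Dnm1l, Mff and Mief2 hold none of the 8 words, like Mfn1 and Fis1. Mief1 shares 1.99% of its 50-base words with AC140267.1, a gene on the same strand that overlaps 213 of its exon bases, and Mff shares 1.45% with C430014B12Rik on the opposite strand. For Mfn1 and Yme1l1 these shares were 0.885% and 0.452%, and Mfn2, Opa1, Oma1, Fis1 and Mief2 share no such word.

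MiT/TFE factors such as Tfeb bind the E-box CACGTG. Among the members only the start region of Mief2 holds it, at position -24 from the start site, in a form without the T before it that marks the longer word TCACGTG. Of all 32851 RefSeq windows of this length 7.15% hold CACGTG and 3.77% hold TCACGTG or its reverse complement, searched on both strands; TCACGTG contains CACGTG. The window of Mief2 is printed with the E-box in capitals, since Tfeb is the factor depleted (GRCm38.p6, plus strand, chr11:60728148-60728447):
Mief2 promoter window: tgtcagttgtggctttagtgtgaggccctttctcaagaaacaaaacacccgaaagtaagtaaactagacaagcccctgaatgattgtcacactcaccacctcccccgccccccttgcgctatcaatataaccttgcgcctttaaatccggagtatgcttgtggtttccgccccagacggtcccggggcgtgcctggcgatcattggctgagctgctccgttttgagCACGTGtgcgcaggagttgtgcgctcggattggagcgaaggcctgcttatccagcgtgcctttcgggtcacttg
Mief2 was not called, and Mfn1, Opa1 and Fis1, which were, have no CACGTG in these windows. Sites outside the windows were not searched.

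Genes that act on these proteins were followed in 5 lists with 50 genes, of which 45 were tested. Together 7 rose and 8 fell, and the test called none of the other 30, so that 33.3% were called, beside 33.3% of all tested genes. By direction, 16.9% of all tested genes were called higher and 16.4% lower. Each list holds only 6 or 11 tested genes, and whether a list leans to either side was not tested. Their median log2 fold change was -0.05, beside 0.02 over all tested genes. The 5 genes below the level filter were Miga1, Pld6, Gdap1, Park2 and Mtfp1. Miga1, which aids mitofusins on the outer membrane and was named after its values were seen, had 136 reads over the scrambled libraries and 59 after Tfeb siRNA. With no filter on low values none of the 5 was called, Miga1 having the lowest limma adjusted p (0.111).

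Of 6 tested regulators of mitofusins 0 rose and 3 fell, with a median log2 fold change of -0.19. Miga2, a relative of Miga1 that promotes fusion, fell from 6.37 ± 0.434 to 5.06 ± 0.223 FPKM (limma adjusted p = 0.0161), but lost its call without scrambled siRNA replicate 2 or 3 or Tfeb siRNA replicate 3 (adjusted p 0.0549, 0.0602 and 0.0522). Slc25a46, an outer membrane protein that shapes mitochondria, fell from 16.9 ± 0.574 to 13.7 ± 0.132 FPKM (limma adjusted p = 0.00471). The third, named after its values were seen, was March5, the ubiquitin ligase of the outer membrane that acts on Drp1 receptors and mitofusins, which fell from 72.8 ± 0.699 to 62.9 ± 2.29 FPKM (limma adjusted p = 0.0159). March5 lost its call without scrambled siRNA replicate 3 or Tfeb siRNA replicate 1 (highest adjusted p = 0.0516). Mul1, Usp30 and Fbxo7 did not pass.

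Of the 11 genes listed around Opa1, which are proteases, scaffolds and the relay proteins Dele1 and Eif2ak1, 3 rose and 0 fell. Stoml2, a scaffold that binds cardiolipin and prohibitins, rose from 9.62 ± 0.378 to 12.5 ± 0.330 FPKM (limma adjusted p = 0.00295). Afg3l2, a subunit of the m-AAA protease, rose from 21.5 ± 0.830 to 26.4 ± 0.618 FPKM (limma adjusted p = 0.00588). Eif2ak1, the kinase that receives the Oma1 stress signal and was named after its values were seen, rose from 8.17 ± 0.367 to 9.50 ± 0.272 FPKM (limma adjusted p = 0.0289). It lost its call without scrambled siRNA replicate 1 or 3 or Tfeb siRNA replicate 2 or 3 (highest adjusted p = 0.0849). Dele1, listed as 0610009O20Rik, which Oma1 cuts to start that signal and which was also named after its values were seen, had 14.4 ± 1.29 and 12.3 ± 0.508 FPKM and was not called (limma adjusted p = 0.0619). The prohibitins Phb and Phb2, and Spg7, Parl, Lonp1, Htra2 and Clpp, did not pass.

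Of 11 genes of the MICOS complex, which holds cristae junctions together with Opa1, and its outer membrane partners, 2 rose and 2 fell. Samm50, the outer membrane insertase to which MICOS is anchored, rose from 14.0 ± 0.799 to 19.9 ± 0.244 FPKM (adjusted p = 0.00110 in limma, log2 fold change 0.49 with an SE of 0.06), and Dnajc11, a partner of the same bridge, from 6.89 ± 0.378 to 8.91 ± 0.0362 FPKM. Chchd6, a MICOS subunit, fell from 10.6 ± 0.607 to 6.27 ± 0.606 FPKM (adjusted p = 0.00111 in limma, log2 fold change -0.72 with an SE of 0.08). Micos13, listed as 2410015M20Rik, fell from 42.6 ± 0.308 to 33.9 ± 1.37 FPKM. Immt, the core subunit, also named after its values were seen, had 13.2 ± 0.485 and 13.4 ± 0.319 FPKM and did not pass.

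Among 11 tested helpers and regulators of Drp1, 1 rose and 1 fell. Akap1, which anchors protein kinase A at the outer membrane, where the kinase inhibits Drp1, rose from 15.8 ± 0.693 to 20.5 ± 0.329 FPKM (limma adjusted p = 0.00242). Mtfr1l, a fission regulator-like protein, fell from 16.5 ± 0.547 to 12.9 ± 0.653 FPKM (limma adjusted p = 0.00473). The actin nucleators Inf2 and Spire1, the dynamin Dnm2, and Mtfr1, Mtfr2, Pgam5, Senp5, Tbc1d15 and Tbc1d17 did not pass.

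Of 6 genes of mitochondrial movement along microtubules 1 rose and 2 fell. Trak2, an adaptor between mitochondria and motors, rose from 14.5 ± 0.620 to 23.5 ± 1.35 FPKM (adjusted p = 0.000605 in limma, log2 fold change 0.67 with an SE of 0.06); whether it rose more than Mfn1 was not tested. Armcx3, which binds the Miro proteins, fell from 3.94 ± 0.408 to 2.55 ± 0.268 FPKM (limma adjusted p = 0.00811). Rhot1, which encodes the Miro protein that couples mitochondria to these adaptors, fell from 11.0 ± 0.204 to 9.32 ± 0.330 FPKM (limma adjusted p = 0.0152) and lost its call without Tfeb siRNA replicate 2 (0.0502). Rhot2, Trak1 and Kif5b did not pass.

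**Figure D4:**
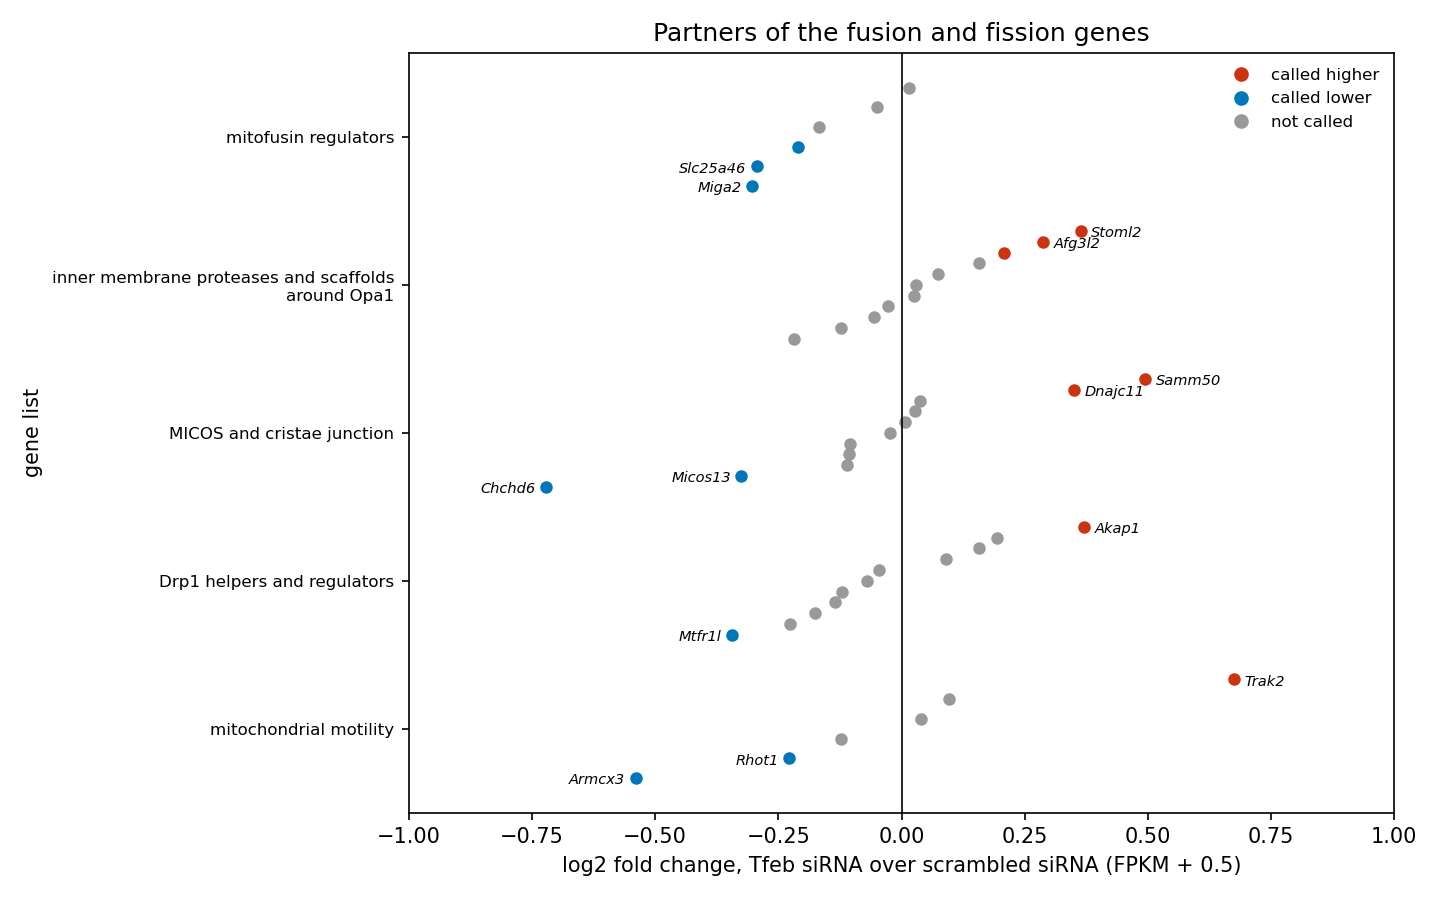
Log2 fold change (Tfeb siRNA over scrambled siRNA, log2(FPKM + 0.5) scale) of the 45 tested partner genes in 5 lists; each point is a gene, coloured by its call, and the called genes with the largest changes in each list are named. Calls lie on both sides of 0 in the MICOS, Drp1 and motility lists. The 3 calls among the mitofusin regulators lie on the lower side and the 3 in the list around Opa1 on the higher side. That list also holds the stress relay proteins Dele1 and Eif2ak1, and Eif2ak1 is among its 3 calls. Over all tested genes 16.9% were called higher and 16.4% lower, and whether a list leans to a side was not tested.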

How the data were processed

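RNA-seq values of 6 libraries were used, grouped and numbered by the sample titles. The deposited table holds FPKM values, 1 column per library, with gene positions and lengths, per the file headers; 0 columns of other samples were present. Reads were placed on build mm10, as the submitters' processing notes state; aligner, counter, annotation release and strand setting: not given in the sources used here. In each library, 100% of values above 0, once multiplied by gene length, were whole multiples of the smallest one (tolerance 1e-06). Read numbers come from these multiples and cover counting error only. The depth the authors divided by matched median-ratio scaling (ratio 1 throughout), so their FPKM values were scaled between libraries before deposit.

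The comparison used limma 3.58.1 (R 4.3.3) and log2(FPKM + 0.5) values of the 12257 genes with a mean of at least 1 FPKM, with eBayes and a mean-variance trend, two-sided; the script was tested on simulated data. Fold changes on this scale understate low genes. The labels do not say whether replicates were separate cultures; p-values therefore reflect the spread of these 6 samples alone, possibly a technical one. No libraries agreed within sampling noise (chi-square per gene 4.40 to 8.16 within groups). Residuals of same-numbered libraries correlated at 0.382, 0.129 and 0.166, all above 0.1. Scrambled replicate 3 with Tfeb siRNA replicate 2 (0.106) and scrambled 2 with Tfeb siRNA 3 (0.0996) correlated nearly as much. The numbers 2 and 3 are thus weakly told apart. Residuals were centred within each group, so the correlation of number 1 pulls those among numbers 2 and 3 upward. Those among numbers 2 and 3 are therefore no separate evidence of pairs. Same-numbered libraries are compared as pairs on the residuals' evidence and not the titles', and only beside the main fit. The main fit left the replicate number out, so its p-values are unpaired. GENCODE M21 held 12249 of the 12257 tested identifiers, and each member had the same start, end and length there as in the table. The members, lists and heptamers were chosen with earlier results of these data known. Genes named are the 10 members, Tfeb, and in each list the 2 called genes with the largest change in each direction; others given with values are marked. Figures were drawn with matplotlib 3.10.9.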

Additional observations from a re-analysis of the deposited data

How the results depend on the processing

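The calls of Mfn1, Opa1 and Fis1 held under all 15 alternatives: pseudocounts of 0.1 and 1, no filter, a mean of 5 FPKM or more, TPM, no trend, a replicate block, each library left out, and, chosen after seeing the data, limma-voom on derived reads and scaling to read totals without size factors. Their highest adjusted p was 0.0131, 0.0160 and 0.0327, each without scrambled siRNA replicate 3. No other member was called under any alternative; the lowest adjusted p was 0.0528, for Dnm1l with the replicate block, and 0.0590 for Mief1 and 0.0714 for Mief2 without Tfeb siRNA replicate 1, and 0.0613 for Yme1l1, whose fold change is positive, without Tfeb siRNA replicate 2. The only change of direction among the members was Oma1 without scrambled siRNA replicate 3 (log2 fold change 0.0053, adjusted p = 0.966; its range with 1 library left out was -0.076 to 0.0053). With the mean filter of 5 FPKM, Mief2 and Tfeb were not tested. Over all genes, 1412 to 1700 were higher and 1360 to 1704 lower with 1 library left out, and 2542 and 2386 with the replicate block. Scaling moved the balance: 1780 were higher and 2299 lower with read totals, and 1688 and 2275 with TPM. The partner lists had 6 to 7 genes higher and 6 to 10 lower over the alternatives, 7 and 10 with the replicate block, which added Mul1 and Pgam5 and changed no call of a member. Read-total scaling added Mul1 and Mtfr1, limma-voom added Mtfr1, and leaving out a library added Dele1 (without scrambled siRNA replicate 2) and Pgam5 (without Tfeb siRNA replicate 1). Eif2ak1 also lost its call with TPM. Mief2 and Oma1 rest on the fewest reads among the members (165 and 217 in their lowest library).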
